A study of Arabidopsis thaliana with 4 samples.

Results

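The metallothionein genes of Arabidopsis thaliana were taken from the expression table by gene identifier: MT1A (AT1G07600), MT1B (AT5G56795) and MT1C (AT1G07610) of type 1, MT2A (AT3G09390) and MT2B (AT5G02380) of type 2, and MT3 (AT3G15353) of type 3. All 6 were present among the 33602 genes of the table. Whole seedlings of the jmj28-3 line were compared with wild-type seedlings (WT, titled Col-0), with 2 libraries of polyadenylated RNA for each genotype. All seedlings were 12 days old and had grown at 23 °C on 1/2 MS medium with 1% sucrose, under 16 h of light and 8 h of dark. JMJ28 encodes a jumonji domain protein. The kind of lesion in jmj28-3 and the number of plants pooled in a library are not given in the labels, and nothing says that the replicates came from separate cultures, so any spread between them may be technical. The family was selected with the jmj28-3 against WT values of MT1B in view, so the genotype differences of the 6 genes are described below and carry no test.

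Plant metallothioneins are small proteins rich in cysteine, whose sulfur atoms bind copper, zinc and cadmium. In Arabidopsis, MT1A and MT2B transcripts are known mainly from the phloem and MT2A and MT3 transcripts from the mesophyll and root tip, while the type 4 proteins store zinc in seeds. Metallothioneins are also known for high transcript levels in senescing leaves and for a part in copper tolerance and remobilization. Because RNA came from whole seedlings, fewer cells of a type and less RNA per cell cannot be told apart.

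The coding sequences of the 3 type 1 genes are shown first, since MT1B differed most between genotypes and shares a run of bases with MT1A. They were read from the RefSeq annotation of TAIR10.1 on the coding strand, 5′ to 3′. In MT1A and MT1C the capitals mark the codons for cysteine. In MT1B they mark the longest run that is identical in MT1A.
MT1A: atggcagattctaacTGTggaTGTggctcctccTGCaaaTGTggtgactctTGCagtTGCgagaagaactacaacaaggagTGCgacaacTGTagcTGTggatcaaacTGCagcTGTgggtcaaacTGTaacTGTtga
MT1B: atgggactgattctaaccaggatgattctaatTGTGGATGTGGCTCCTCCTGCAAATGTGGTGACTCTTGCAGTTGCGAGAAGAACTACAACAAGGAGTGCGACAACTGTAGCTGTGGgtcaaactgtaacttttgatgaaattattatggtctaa
MT1C: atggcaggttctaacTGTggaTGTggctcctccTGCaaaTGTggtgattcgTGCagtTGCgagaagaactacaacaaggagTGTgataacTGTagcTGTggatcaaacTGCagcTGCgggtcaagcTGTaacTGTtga
MT1A and MT1C each held 13 cysteine codons among 45, and in each a cysteine codon was separated from the next by 1 other codon 6 times. Their coding sequences were identical at 131 of 138 aligned positions (94.9%). The annotated MT1B coding sequence held 0 cysteine codons in its 51 codons. It nevertheless shared 86 identical bases with MT1A, from base 33 to base 118 of its coding sequence, against bases 16 to 101 of that of MT1A. The run lay in another reading frame. Read from the third base of the annotated MT1B coding sequence, that frame gave 10 cysteine codons in all, ahead of a stop codon at base 135. No start codon in that frame preceded the run within the annotated mRNA, after the nearest upstream stop.

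The coding sequences of the type 2 and type 3 genes are shown because MT2B and MT3 gave the highest levels of the family in every library, and because the 3 sequences differ from type 1 in where the cysteine codons lie. Capitals again mark cysteine codons.
MT2A: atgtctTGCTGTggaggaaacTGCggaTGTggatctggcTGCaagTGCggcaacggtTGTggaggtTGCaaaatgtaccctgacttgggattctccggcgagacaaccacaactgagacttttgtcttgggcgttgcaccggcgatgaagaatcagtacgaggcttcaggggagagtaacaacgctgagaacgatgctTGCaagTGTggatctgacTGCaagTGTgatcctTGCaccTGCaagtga
MT2B: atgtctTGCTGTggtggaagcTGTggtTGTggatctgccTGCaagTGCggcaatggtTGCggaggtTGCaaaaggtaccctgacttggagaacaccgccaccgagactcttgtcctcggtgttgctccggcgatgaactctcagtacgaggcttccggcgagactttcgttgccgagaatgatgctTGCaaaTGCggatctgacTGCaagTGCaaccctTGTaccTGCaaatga
MT3: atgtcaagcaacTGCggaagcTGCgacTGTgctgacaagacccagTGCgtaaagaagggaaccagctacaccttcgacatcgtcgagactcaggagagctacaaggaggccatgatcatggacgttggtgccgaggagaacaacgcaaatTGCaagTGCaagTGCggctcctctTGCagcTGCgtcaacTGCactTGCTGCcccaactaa
MT2A and MT2B each held 14 cysteine codons, among 81 and 77 codons, and MT3 held 12 among 69. In these 3 genes the cysteine codons stood at the start and the end of the sequence, with a long stretch free of them between. MT2A and MT2B were identical at 79.7% of aligned positions, MT2A and MT3 at 54.9%, and the type 1 genes and MT2B at 44.3% to 48.1%.

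MT1A lies on chromosome 1 at 2338904 to 2339321 on the minus strand, and MT1C lies near it at 2341447 to 2342148 on the plus strand. MT1B stands apart on chromosome 5, at 22971713 to 22972690 on the minus strand, far from MT2B at 506498 to 507244. Chromosome 3 carries MT2A at 2889406 to 2890574 and MT3 at 5180642 to 5181586, both on the minus strand. MT3 has 3 exons in the mRNA used here, and the other genes have 2 exons. The submitters' processing notes name TAIR10, and the positions are those of TAIR10.1.

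MT1B was listed at 0 FPKM in both WT libraries and was present in both jmj28-3 libraries. FPKM are fragment numbers divided by the length of the transcript and by the size of the library. MT1B had 11.42 and 7.72 FPKM in jmj28-3 replicates 1 and 2, against 0 and 0 in WT replicates 1 and 2. The mean was 9.57 ± 2.62 FPKM in jmj28-3 (SD, n = 2). No fold is given against values listed at 0. The difference of log2(FPKM + 1) was 3.38, and it was set largely by the added 1, since adding 0.1 gave 6.57. In both jmj28-3 libraries MT1B stood far below its relatives, at rank 9951 and rank 12175 of all genes.

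From the steps between low FPKM values, 1 fragment at MT1B was worth about 0.0824 and 0.0998 FPKM in jmj28-3 replicates 1 and 2, and 0.0967 and 0.0888 FPKM in WT replicates 1 and 2. On that scale the jmj28-3 values corresponded to an estimated 139 and 77 fragments. These are estimates: they use the annotated mRNA length of 741 bases, and between 44.3% and 49.9% of the low values used lay within 0.08 of 1, 2 or 3 whole fragments. A value of 0 from a program that divides shared fragments among genes can also be the result of that division.

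**Figure D1:**
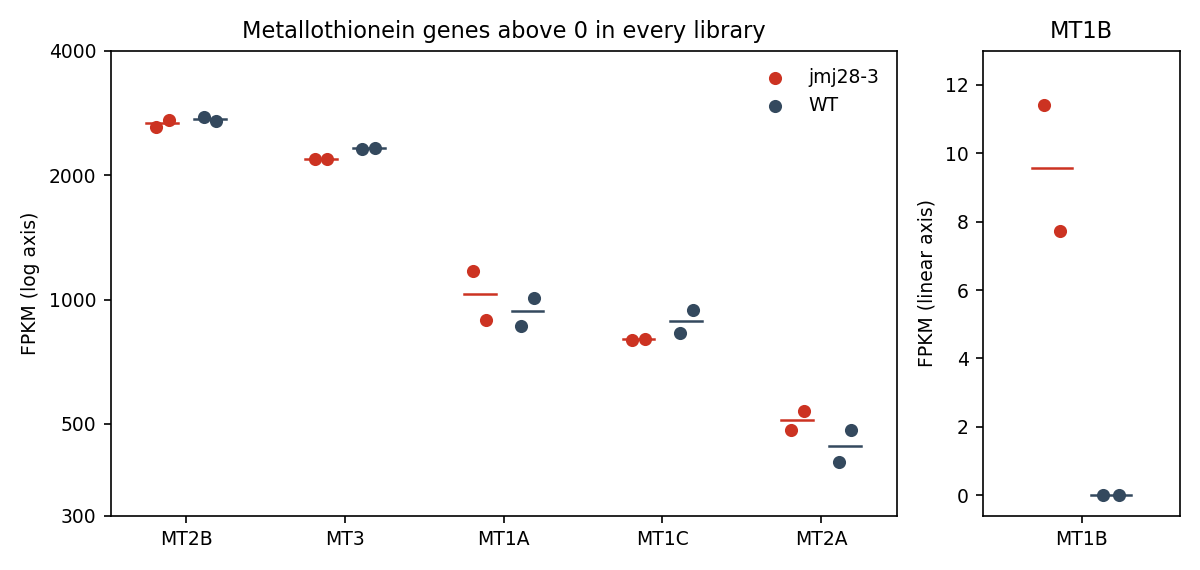
FPKM of the 6 metallothionein genes, jmj28-3 in red at the left and WT in dark blue at the right of each gene, with 1 point per library and a line at the mean of 2. The 5 genes in the log-scaled panel have similar values in both genotypes, and MT1B, in the linear panel, has 11.42 and 7.72 FPKM in jmj28-3 and 0 in WT.

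The mRNA of MT1B resembled a far more abundant one. Bases 180 to 540 of its 741 bases aligned with the first 363 bases of AT1G07590, the gene that contains MT1A, at 88.7% identity. Of the 692 windows of 50 bases in the MT1B mRNA, 85 occurred unchanged in AT1G07590, and 37 of these also in MT1A. Of 642 windows of 100 bases, 0 occurred in another annotated transcript. The labels give no read length. MT1B amounted to 0.975% and 0.867% of the MT1A value in jmj28-3 replicates 1 and 2, and to 0% in WT replicates 1 and 2, where MT1A itself had 864.3 and 1010.86 FPKM. In jmj28-3 replicates 1 and 2, MT1A had 1171.35 and 890.77 FPKM. The part of shared fragments in the MT1B values was not tested.

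**Figure D2:**
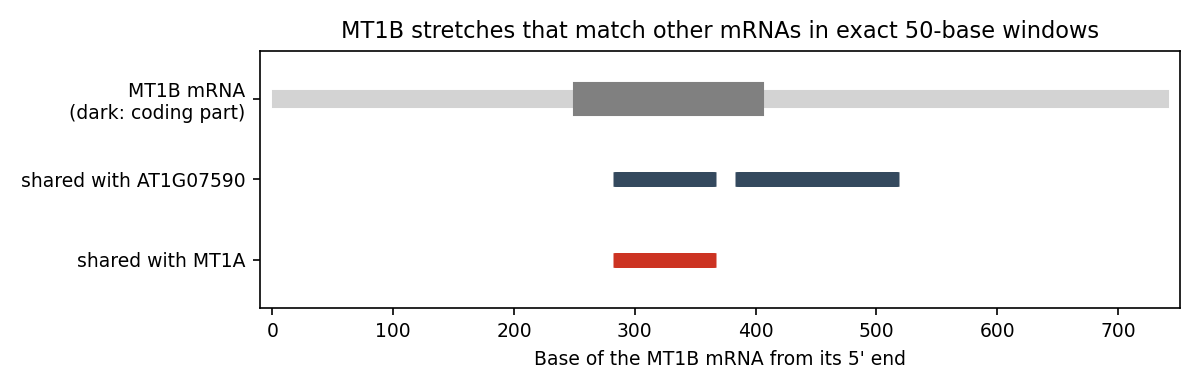
Position along the MT1B mRNA in bases from its 5′ end. The grey bar shows the mRNA with its annotated coding part dark, and the coloured bars show stretches covered by 50-base windows that occur unchanged in AT1G07590 (85 windows) or in MT1A (37 windows).

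The genes beside MT1B gave values that were close in the 2 genotypes. AT5G56790, a protein kinase gene on the opposite strand that ends 23 bases from MT1B, had 7.33 and 7.37 FPKM in jmj28-3 and 7.74 and 7.65 FPKM in WT. AT5G56800, on the other side, was listed at 0 in all 4 libraries. Over the whole table, 2 genes were listed at 0 in both WT libraries and reached at least 7.72 FPKM in both jmj28-3 libraries. These were MT1B and the small nucleolar RNA gene SNOR77, and 0 genes did the reverse. The cut was the lower jmj28-3 value of MT1B itself, so MT1B was counted by construction and nothing is read from the count.

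The 3 tested genes whose profile over the 4 libraries was closest to that of MT1B were TCH4 (AT5G57560), PHI-1 (AT1G35140) and AT1G02660. Closeness was the root mean square difference of log2(FPKM + 1), each gene centred on its own mean over the 4 libraries, and it came to 0.20, 0.25 and 0.33. TCH4, a touch-induced xyloglucan endotransglucosylase/hydrolase gene, had 316.85 and 295.55 FPKM in jmj28-3, against 32.31 and 24.58 FPKM in WT. PHI-1, of the phosphate-responsive family, had 81.79 and 69.63 FPKM in jmj28-3, against 9.74 and 8.19 FPKM in WT. The hydrolase gene AT1G02660 had 27.43 and 29.33 FPKM in jmj28-3, against 3.01 and 2.95 FPKM in WT. In all 3, as in MT1B, both jmj28-3 libraries lay above both WT libraries, and only the likeness to MT1B chose them. MT1B was listed at 0 in WT, so its profile depends on the added 1. Its log2 difference was 3.38 with 1 added and 6.57 with 0.1 added. The choice of these genes was made only with 1 added.

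MT1A, a copper-binding type 1 metallothionein, was among the highest transcripts of every library. It had 1171.35 and 890.77 FPKM in jmj28-3 replicates 1 and 2, against 864.3 and 1010.86 FPKM in WT replicates 1 and 2. The genotypes overlapped, with the highest and the second-lowest value both in jmj28-3. The means were 1031 ± 198 FPKM in jmj28-3 and 938 ± 104 FPKM in WT (SD, n = 2 each), and the log2 difference was 0.13 (SE 0.143). Without jmj28-3 replicate 1 the difference was -0.07 and without jmj28-3 replicate 2 it was 0.33, so 1 library set its sign. The gap between the jmj28-3 replicates was 0.39 log2 units and that between the WT replicates 0.23, where 445 tested genes with a mean of at least 300 FPKM had median gaps of 0.05 and 0.06.

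The gene models that the authors counted with are named only as TAIR10 and may differ from the RefSeq models used here. In the RefSeq models the annotated MT1A transcript cannot be counted apart from its neighbour. All 138 of its exon bases lie within exons of AT1G07590, a tetratricopeptide repeat gene on the same strand, with the same inner splice sites. They fall in the part of the AT1G07590 mRNA ahead of its coding sequence. Every one of the 89 windows of 50 bases in MT1A therefore also occurred in AT1G07590. AT1G07590 had 510.98 and 538.07 FPKM in jmj28-3 and 536.86 and 548.13 FPKM in WT (limma log2 difference -0.05, SE 0.0474, adjusted p = 0.592). MT1A stood at 2.29 and 1.66 times the AT1G07590 value in jmj28-3, and at 1.61 and 1.84 times in WT. The annotated MT1A transcript is also shorter than the 240 to 280 bases by which transcript lengths had to be reduced for the low FPKM values to fall in steps, so few start positions can carry its FPKM. Levels of MT1A are uncertain for these reasons, and with the RefSeq models stranded counting would not separate the genes.

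**Figure D3:**
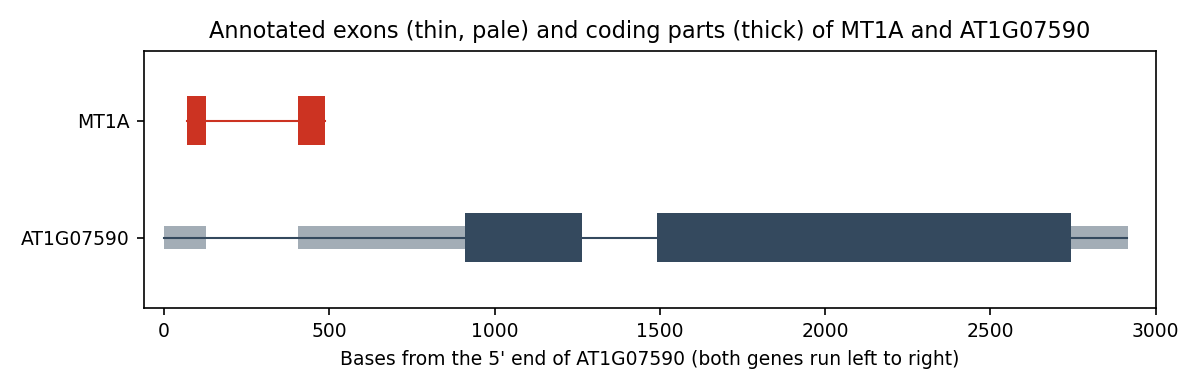
Exons (thin, pale) and coding parts (thick) of MT1A and AT1G07590 in bases from the 5′ end of AT1G07590, with lines for introns. Both MT1A exons, 138 bases in all, lie inside the first and second exons of AT1G07590, ahead of its coding part.

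MT1C, the close relative of MT1A, had 800.43 and 801.62 FPKM in jmj28-3 replicates 1 and 2, against 832.29 and 942.21 FPKM in WT replicates 1 and 2. Both jmj28-3 values lay below both WT values, as in 32.7% of all tested genes. The means were 801 ± 0.841 FPKM in jmj28-3 and 887 ± 77.7 FPKM in WT, a log2 difference of -0.14 (SE 0.0672). The difference was smaller than the gap of 0.18 log2 units between the WT replicates. No window of 50 bases in MT1C occurred in another annotated transcript, and 36 of its 553 windows of 25 bases did. Its neighbour AT1G07615, which lies on the opposite strand and ends 49 bases from it, had 4.59 and 6.03 FPKM in jmj28-3 and 5.4 and 4.76 FPKM in WT.

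Of the 5 abundant members, MT2A alone had both jmj28-3 values above both WT values, where 22.4% of all tested genes did. It had 483.53 and 536.42 FPKM in jmj28-3, against 403.73 and 482.49 FPKM in WT. The lowest jmj28-3 value exceeded the highest WT value by little. The means were 510.0 ± 37.4 FPKM in jmj28-3 and 443 ± 55.7 FPKM in WT, a log2 difference of 0.21 (SE 0.0983). This was less than the gap of 0.26 log2 units between the WT replicates. Without WT replicate 1 the difference was 0.08, and the other 3 ways to leave out 1 library gave up to 0.33.

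MT2B, the partner of MT2A, had the highest FPKM of the family in all 4 libraries. It had 2617.85 and 2726.08 FPKM in jmj28-3, against 2766.44 and 2710.9 FPKM in WT. The genotypes overlapped. The means were 2672 ± 76.5 FPKM in jmj28-3 and 2739 ± 39.3 FPKM in WT, a log2 difference of -0.04 (SE 0.0448). MT2B was 5.41 and 5.08 times as high as MT2A in jmj28-3, and 6.85 and 5.62 times in WT. No window of 25 bases was shared between either type 2 gene and another annotated transcript. The genes beside the type 2 pair were low: AT5G02370, next to MT2B, had 5.48 and 4.88 FPKM in jmj28-3 and 3.58 and 4.94 FPKM in WT, and PLL3 and the pseudogene AT3G09385, on either side of MT2A, did not exceed 0.15 FPKM in any library.

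MT3, the type 3 metallothionein, had the smallest replicate spread. It had 2186.88 and 2185.72 FPKM in jmj28-3, against 2312.71 and 2329.18 FPKM in WT. Both jmj28-3 values lay below both WT values, as in 32.7% of all tested genes. The replicate gaps were 0.0008 log2 units in jmj28-3 and 0.01 in WT. Tested genes with a mean of at least 300 FPKM had median gaps of 0.05 and 0.06 and a median absolute log2 difference of 0.07. The means were 2186 ± 0.820 FPKM in jmj28-3 and 2321 ± 11.6 FPKM in WT, so jmj28-3 was at 0.942 times the WT mean (log2 difference -0.09, SE 0.0402). The difference lay between -0.09 and -0.08 whichever library was left out, and was -0.05 with median-of-ratios scaling. A non-coding RNA gene, AT3G03105, is annotated within MT3 on the opposite strand and covers 70 of its exon bases. Without strand in the counting, fragments of MT3 could not be told apart from it there, and it was not analysed here. COX17, whose product carries copper to cytochrome c oxidase and whose gene meets MT3 end to end with an overlap of 24 bases, had 12.38 and 11.99 FPKM in jmj28-3 and 17.45 and 13.58 FPKM in WT (limma log2 difference -0.32, SE 0.125, adjusted p = 0.204).

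**Figure D4:**
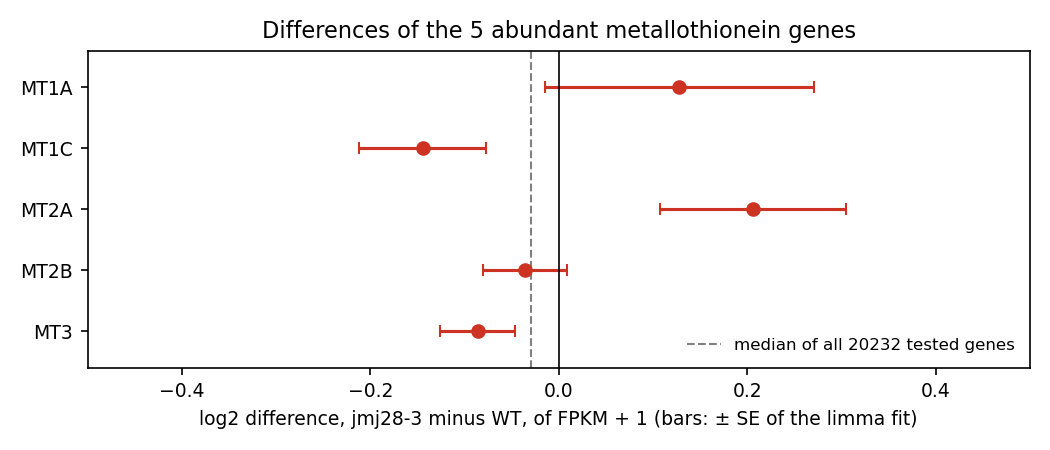
Log2 difference of FPKM + 1, jmj28-3 minus WT, for the 5 abundant metallothionein genes, with bars of ± 1 SE of the limma fit. MT1A and MT2A lie at 0.13 and 0.21, MT1C, MT2B and MT3 between -0.14 and -0.04, and the dashed line marks the median of all 20232 tested genes at -0.03.

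In every library the order by FPKM, which is scaled by length, was MT2B, MT3, MT1A, MT1C, MT2A and MT1B. The place of MT1A in this order and its part in the family sum are uncertain, because of its overlap with AT1G07590. MT2B took ranks 39 to 42 among all genes and MT3 ranks 44 to 48. MT1A and MT1C were neighbours whose values over the libraries overlapped, MT1A being 1.46 and 1.11 times as high as MT1C in jmj28-3 and 1.04 and 1.07 times in WT. The other neighbours in the order did not overlap over the 4 libraries. Summed over the family, the libraries had 7271 and 7148 FPKM in jmj28-3, against 7179 and 7476 FPKM in WT. This was 0.733% and 0.723% of all FPKM in jmj28-3 and 0.727% and 0.760% in WT. MT2B and MT3 together made up more than 60% of the family sum in each library. The type 4 genes MT4A (AT2G42000) and MT4B (AT2G23240) were listed at 0 in all 4 libraries.

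All 6 genes passed the filter of a mean of 0.5 FPKM, MT1B only through its jmj28-3 values. The genotypes did not overlap for 4 of the 6 genes, where 55.2% of the 20232 tested genes showed no overlap. Over all tested genes, limma called 7.97% at an adjusted p under 0.05 (4.18% higher and 3.79% lower in jmj28-3). Since the family was selected on this contrast, no call is given for its members and nothing is read from the overlap count.

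Libraries were alike in their totals. Summed FPKM ran from 983897 to 991510. Correlations of log2(FPKM + 1) were 0.989 within each genotype and 0.977 to 0.980 between genotypes. JMJ28 (AT4G21430) had 3.65 and 3.33 FPKM in jmj28-3 and 3.8 and 5.54 FPKM in WT (adjusted p = 0.327), which does not check the labels because the lesion is not given. Markers of the main seedling tissues were present. The summed level of 8 phloem markers was 392 and 406 FPKM in jmj28-3 and 411 and 396 FPKM in WT, and that of 4 mesophyll markers ran from 41875 to 44676 FPKM. For both lists limma called 0 members, where 7.97% of all tested genes were called. At an unadjusted p under 0.05 were 0 phloem and 2 mesophyll markers. The share of all tested genes under that unadjusted cut is not given here, so nothing is read from such counts. Of 11 root markers, 1 was lower in jmj28-3 and 10 were not called, where 3.79% of all tested genes were lower. That was SCR, for the GRAS factor that patterns the root ground tissue, at 16.74 and 16.65 FPKM in jmj28-3, against 22.34 and 21.3 FPKM in WT (adjusted p = 0.0364). The median log2 difference of the 11 was -0.20, with 2 of them above 0, where the median of all tested genes was -0.03. Root markers summed to 138 and 126 FPKM in jmj28-3, against 154 and 166 FPKM in WT, and none of the 11 was at 0. Of 5 trichome markers, limma called 0, where 7.97% of all tested genes were called, and 1 had an unadjusted p under 0.05. The 5 summed to 42.17 and 39.75 FPKM in jmj28-3 and 41.61 and 48.99 FPKM in WT. The lowest adjusted p in the lists without a call was 0.217 for the phloem factor gene APL, 0.114 for the light-harvesting gene LHCB1.1 and 0.173 for the trichome gene TRY (limma). The part of these tissues in the metallothionein values was not tested.

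Of 24 tested genes for copper handling in a list of 27, 1 was higher, 2 were lower and 21 were not called, where 7.97% of all tested genes were called, and the median log2 difference was -0.01, where that of all tested genes was -0.03. FRO4 (AT5G23980), a ferric and cupric reductase gene of the root surface, had 9.17 and 9.05 FPKM in jmj28-3, against 14.92 and 19.38 FPKM in WT (log2 difference -0.83, SE 0.130, adjusted p = 0.0226). Its tandem neighbour FRO5 (AT5G23990) had 3.74 and 4.1 FPKM in jmj28-3, against 7.69 and 7.94 FPKM in WT (log2 difference -0.84, SE 0.0984, adjusted p = 0.00988). Reads can be shared between FRO4 and FRO5. HMA8 (AT5G21930), the copper pump of the thylakoid, rose 1.25-fold, with 37.88 and 36.56 FPKM in jmj28-3 and 30.5 and 28.9 FPKM in WT (adjusted p = 0.0438).

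The other copper genes did not pass the test and lay on both sides, and 11 of the 24 had a log2 difference above 0. The copper chaperone gene ATX1 had 290.93 and 306.52 FPKM in jmj28-3 and 266.52 and 284.01 FPKM in WT (limma adjusted p = 0.269). Its homologue CCH had 579.07 and 558.53 FPKM in jmj28-3 and 592.45 and 662.43 FPKM in WT (limma adjusted p = 0.267). SPL7, the main regulator of the response to copper shortage, had 14.88 and 14.78 FPKM in jmj28-3 and 15.3 and 17.3 FPKM in WT. The genotypes did not overlap for 16 of the 24 genes, where 55.2% of all tested genes showed no overlap. ATX1, CCH and SPL7 lie outside the rule for named genes and were chosen after their values were seen.

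Of 22 tested genes of zinc and cadmium transport in a list of 28, 0 were higher and 2 lower, where 4.18% of all tested genes were higher and 3.79% lower. The other 20 failed the test, and the median log2 difference was -0.12, where that of all tested genes was -0.03. NAS3 (AT1G09240), for an enzyme that makes the metal chelator nicotianamine, had 4.47 and 4.51 FPKM in jmj28-3, against 15.2 and 10.14 FPKM in WT, 0.354 times the WT mean (log2 difference -1.29, SE 0.183, adjusted p = 0.0173). ZIP11 (AT1G55910), of the zinc and iron transporter family, had 11.27 and 10.36 FPKM in jmj28-3, against 20.39 and 17.36 FPKM in WT (log2 difference -0.75, SE 0.102, adjusted p = 0.0155). Among 8 tested genes for glutathione and phytochelatins, the peptides that hold metals beside metallothioneins, limma called 0. Of all tested genes 7.97% were called, and 4 of the 8 had an unadjusted p under 0.05. The smallest p belonged to GR1 and PCS1. GR1, a glutathione reductase gene, had 141.14 and 148.74 FPKM in jmj28-3 and 174.11 and 166.09 FPKM in WT (limma adjusted p = 0.0666). PCS1, for phytochelatin synthase, had 32.25 and 36.57 FPKM in jmj28-3 and 28.11 and 27.3 FPKM in WT (limma adjusted p = 0.0870). Lists with calls also held genes at an unadjusted p under 0.05 in limma. These were 10 of 24 for copper, 8 of 22 for zinc and cadmium and 4 of 11 for root markers. For the reactive oxygen and senescence lists below they were 7 of 20 and 9 of 15. The share of all tested genes under that cut is not given here.

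Metallothioneins are also counted among scavengers of reactive oxygen, and of 20 tested genes of that list of 21, 1 was higher, 2 were lower and 17 were not called, where 7.97% of all tested genes were called (median log2 difference of the list -0.00). CAT3 (AT1G20620), a catalase gene that peaks in the evening, had 453.15 and 457.19 FPKM in jmj28-3, against 308.47 and 337.91 FPKM in WT (log2 difference 0.49, SE 0.0574, adjusted p = 0.00975). CAT2 (AT4G35090), a catalase gene that peaks in the morning, had 1244.05 and 1200.66 FPKM in jmj28-3, against 1467.59 and 1440.85 FPKM in WT (adjusted p = 0.0305). SAPX (AT4G08390), for the ascorbate peroxidase of the chloroplast stroma, had 77.98 and 78.71 FPKM in jmj28-3, against 102.51 and 101.52 FPKM in WT (adjusted p = 0.0133). The labels give no hour of harvest.

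Of 15 tested genes of leaf senescence in a list of 16, 3 were higher, 1 was lower and 11 were not called, where 4.18% of all tested genes were higher and 3.79% lower. The median log2 difference was 0.54, where that of all tested genes was -0.03. All the lists were chosen with earlier results of these data known, so nothing is read from their counts of calls. SAG14 (AT5G20230), for a blue copper-binding protein, had 12.15 and 12.68 FPKM in jmj28-3, against 2.67 and 1.66 FPKM in WT, 5.73 times the WT mean (log2 difference 2.1, SE 0.169, adjusted p = 0.00399). SEN1 (AT4G35770), a gene induced in darkness, had 45.97 and 61.05 FPKM in jmj28-3, against 20.42 and 8.47 FPKM in WT (adjusted p = 0.0426). SAG101 (AT5G14930), which acts with EDS1 in immunity, had 6.03 and 6.52 FPKM in jmj28-3, against 3.51 and 3.14 FPKM in WT (adjusted p = 0.0185). SGR1 (AT4G22920), needed for chlorophyll breakdown, had 9.72 and 11.56 FPKM in jmj28-3, against 18.2 and 15.34 FPKM in WT (adjusted p = 0.0433). SAG12, a cysteine protease gene that marks late senescence, was listed at 0 in all 4 libraries.

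**Figure D5:**
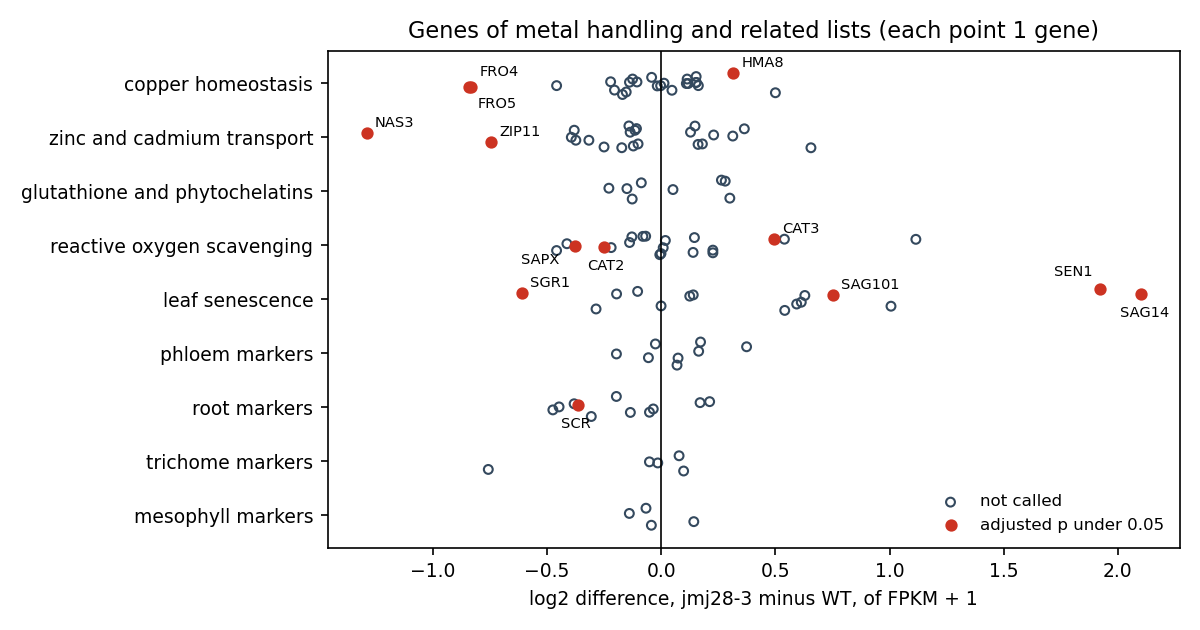
Log2 difference of FPKM + 1, jmj28-3 minus WT, for each tested gene of the lists, with called genes (limma, adjusted p under 0.05) filled and named and the others open. Most genes of copper, zinc and glutathione handling lie near 0, with NAS3 at -1.29 and FRO4, FRO5 and ZIP11 between -0.84 and -0.75, and SAG14 at 2.1 and SEN1 at 1.92 lie farthest to the right.

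Most of these calls did not hold with 3 libraries. Those on HMA8, FRO5, CAT2, SAPX, SAG101, SGR1 and SCR were lost whichever library was left out, with adjusted p up to 0.228. The call on FRO4 was kept only without WT replicate 1, that on ZIP11 only without WT replicate 2 and that on SEN1 only without WT replicate 1. NAS3 and CAT3 missed the threshold when either jmj28-3 library was left out (adjusted p up to 0.158), and SAG14 missed it without jmj28-3 replicate 2 (limma adjusted p = 0.0744).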

How the data were processed

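The authors deposited FPKM for 33602 genes with 2 decimals and 1 column per library, and 0 value columns were left unmatched to a label. TopHat, RSEM and edgeR are named in the submitters' processing notes beside the build TAIR10, without settings. The labels do not say whether strand was used in counting. After adding 1 and taking log2, genotype was the only term of a fit in limma 3.58.1 (R 4.3.3) with a variance trend, genes with a mean of at least 0.5 FPKM, and Benjamini-Hochberg adjustment over all 20232 tested genes at a threshold of 0.05. The tests are two-sided. Adding 1 understates changes of low genes. The fit was also run on simulated data whose spreads came from these data, with changes placed only in genes of higher level.

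The members and lists were chosen with earlier results of these data known. The named genes are the 6 members, their neighbours, JMJ28, the 3 genes nearest in profile to a member that spans at least 1 log2 unit, and from each list up to 4 called genes with the largest change, or the 2 with the smallest p. Gene models and sequences are RefSeq's for TAIR10.1, in which all 6 members were found. Fragment numbers were estimated from steps between low FPKM values. With 2 libraries a group, exact permutation gives no p below 0.33. Results were also computed with 0.1 or 0.5 added, without a filter, with a minimum mean of 2 FPKM, with median-of-ratios scaling, quantile normalization or TPM, with a term for replicate number, without the trend, and with each library left out.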

Additional observations from a re-analysis of the deposited data

How the results depend on the processing

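Leaving out 1 library left 91 to 554 called genes in place of 1613, of which 70 to 398 were higher and 21 to 164 lower in jmj28-3. Without a filter 877 genes were called (526 higher, 351 lower), without a variance trend 756 (469 and 287), and with the replicate block 862 (534 and 328). Among the lists, calls fell to 1 for copper, 1 for zinc, 2 for senescence and 0 for root markers without a filter. Without a variance trend they fell to 1 for copper, 1 for zinc, 0 for reactive oxygen and 0 for root markers. With the replicate block they fell to 1 for reactive oxygen, 2 for senescence and 0 for root markers. Quantile normalization left 2 for senescence, and a minimum mean of 2 FPKM gave 2 for root markers. Leaving out a library gave 0 to 2 calls for copper, zinc and senescence, 0 to 1 for reactive oxygen and 0 for root markers. The leave-outs have fewer libraries, and the cause of these changes in calls was not tested. The summed metallothionein FPKM of jmj28-3 was 0.984 times that of WT, 1.01 times with median-of-ratios scaling and 0.964 to 1.00 times with a library left out. The trichome gene GL2 had a log2 difference of 0.10, which was -0.000214 without WT replicate 1 and 0.20 without WT replicate 2. Replicate numbers do not pair the libraries by the labels, and the deviations of equal numbers correlated at -0.133. The crossed pairing, chosen after seeing the data, called 2287 genes.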
